A study of Arabidopsis thaliana with 12 samples.

Results

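CHLM (AT4G25080) and the geranylgeranyl reductase gene (AT1G74470, called GGR here) encode enzymes of chlorophyll synthesis, and their transcript signals are described here in Arabidopsis thaliana kept in darkness. They were chosen by gene identity, as the genes for which a feature of the array lists exactly 1 gene. Each has 1 such feature, so the members are 2 of 3439 features on the array, and 2 of the 692 features with exactly 1 gene. The choice was made with earlier results of these data known. The samples were 6 arrays of total RNA from the flu mutant, in which FLU is mutated, and 6 arrays of total RNA from the wild type (WT). Both genotypes were of ecotype Landsberg and both had been in darkness for 12 h before harvest. Neither the tissue nor the age of the plants is stated, nor whether arrays of a genotype came from separate plants. The p-values therefore describe the variation among these arrays alone, and that variation may be technical.

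Chlorophyll is built in the plastid from glutamate, through 5-aminolevulinic acid and protoporphyrin. After magnesium is inserted, the CHLM enzyme transfers a methyl group from S-adenosylmethionine to magnesium protoporphyrin, the first step after the chelatase on the chlorophyll branch. Later steps give protochlorophyllide, which in flowering plants is reduced only in light. GGR acts near the end of the pathway and reduces the geranylgeranyl group to the phytyl tail of chlorophyll, and the same phytyl supply feeds tocopherol and phylloquinone. FLU is a negative regulator that binds glutamyl-tRNA reductase, at the start of the pathway, and flu mutants are known for building up protochlorophyllide in the dark and for releasing singlet oxygen when they are then lit. The comparison asks whether transcripts differ between the mutant and the WT in the dark.

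The deposited values are linear intensities between 0 and a limit of about 100. Array medians were 0.443 to 0.491 in WT and 0.426 to 0.442 in flu. Features listed at exactly 0 numbered 108 to 131 per array in WT and 138 to 165 in flu, so every flu array had more of them. Values were raised to a floor of 0.0236, log2 transformed and quantile normalised, and log2 changes below are on that scale. No array listed either member at 0, and the lowest value of a member, 0.333, lay far above the floor. Arrays 1 and 2, 3 and 4, and 5 and 6 of a genotype, called pairs here although the labels do not name them, resembled each other (Spearman correlation 0.909 to 0.967 within pairs, and 0.780 to 0.872 between pairs of WT). Between pairs of flu it was 0.893 to 0.942, which overlaps the range within pairs. No feature with exactly 1 gene stood for FLU, so the mutated gene did not check the labels. Of 15 marker genes of leaf, root, seed and flower 1 was measured, AT1G20130 of the flower list. It was at 0 on 6 WT arrays and 3 flu arrays, so these marker lists did not identify the tissue.

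CHLM stood at 0.665, 0.868, 0.621, 0.584, 0.610 and 0.730 on WT arrays 1 to 6. On flu arrays 1 to 6 it stood at 0.724, 0.798, 0.611, 0.547, 0.333 and 0.561. The genotypes overlapped, with 3 flu arrays inside the WT range, 3 below it and 0 above it. The lowest of the 12 arrays was flu array 5 and the highest was WT array 2. The means were 0.680 ± 0.106 in WT and 0.596 ± 0.161 in flu (SD, n = 6).

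The log2 change of CHLM, flu minus WT, was -0.13 (SE 0.19), with a 95% interval from -0.53 to 0.28, or 0.691 to 1.22 times the WT level. It did not pass the test (limma, adjusted p = 0.608 over all 3439 features), and an exact two-sided permutation test over the 12 arrays gave p = 0.569. The sign of this value rested on 1 array: without flu array 5 the log2 change was 0.02. With arrays averaged within pairs the interval widened to -0.71 to 0.46 (adjusted p = 0.718).

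GGR stood at 1.46, 1.40, 1.52, 1.56, 1.02 and 1.06 on WT arrays 1 to 6. On flu arrays 1 to 6 it stood at 1.297, 1.235, 1.760, 1.828, 1.609 and 1.763. Flu arrays 3 to 6 lay above every WT array, while flu arrays 1 and 2 lay inside the WT range, below WT arrays 1 to 4 and above WT arrays 5 and 6. The means were 1.34 ± 0.237 in WT and 1.58 ± 0.256 in flu (SD, n = 6).

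**Figure D1:**
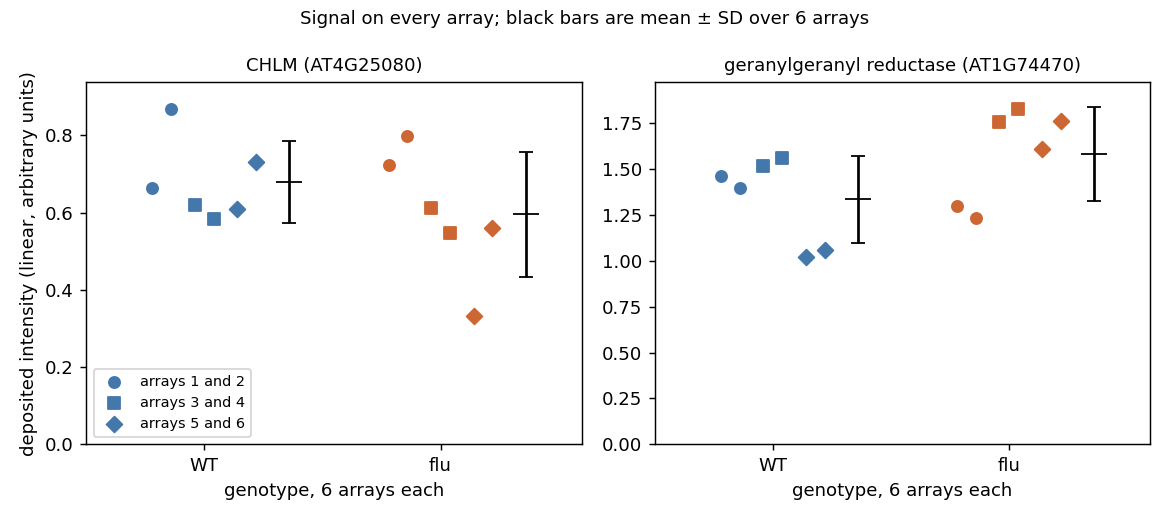
Deposited intensity (linear, arbitrary units, from 0) of CHLM and GGR on each of the 12 arrays, WT in blue and flu in orange, with marker shapes for the pairs of adjacent arrays and black bars for the mean ± SD over 6 arrays. The genotypes overlap for CHLM, whereas 4 flu arrays of GGR lie above the highest WT array (1.56), and the arrays of a pair lie close together for GGR.

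The log2 change of GGR was 0.32 (SE 0.15), with a 95% interval from -0.01 to 0.65, or 0.993 to 1.57 times the WT level. It did not pass the test (limma, adjusted p = 0.0970), and the exact permutation test gave p = 0.0671. Leaving out flu array 2 raised the value to 0.39, which passed (limma adjusted p = 0.0489), and leaving out flu arrays 1 and 2 raised it to 0.48 (0.0186). Without WT arrays 5 and 6 it was 0.15 (adjusted p = 0.406). With arrays averaged within pairs the interval was -0.25 to 0.89 (adjusted p = 0.324).

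Neither member was thus called as changed in the planned comparison, in which 52.2% of all 3439 features were called in either direction. With pairs averaged, 0 of the 2 members were called, against 34.7% of all features. The unadjusted p-values over 12 arrays were 0.514 for CHLM and 0.0566 for GGR, so at an unadjusted p below 0.05 the count was 0 as well. The residual SD on the log2 scale was 0.33 for CHLM and 0.27 for GGR, against a median of 0.33 over all features, so the members varied within genotypes about as much as a typical feature. The median log2 change of all features was -0.04, and -0.20 before normalisation between arrays. On that deposited scale the log2 value of CHLM was -0.23, close to the median, and that of GGR was 0.25 (limma adjusted p = 0.343 and 0.175).

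The change of GGR was not the same in the 3 pairs. Flu minus WT was -0.15 on the log2 scale in arrays 1 and 2, 0.32 in arrays 3 and 4 and 0.80 in arrays 5 and 6, or 0.904, 1.25 and 1.74 times the WT level. Taken array by array, the same-numbered differences were -0.14, -0.15, 0.33, 0.30, 0.76 and 0.83, so the arrays of each pair gave nearly equal values. A limma F test of whether the change differs between pairs, added after seeing the data, had an adjusted p of 0.0063, and 14.4% of all features passed that test. The error in it is the spread within pairs only, and the labels do not say what the pairs are.

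The spread of GGR lay mostly between pairs. Arrays of 1 pair differed by at most 0.06 (WT) and 0.12 (flu) on the log2 scale, while the pair means spanned 0.56 in WT and 0.54 in flu. In WT the low pair was arrays 5 and 6, at a mean intensity of 1.04 against 1.43 and 1.54. In flu the low pair was arrays 1 and 2, at 1.27 against 1.79 and 1.69.

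CHLM had another pattern. Its flu minus WT change was 0.06 in arrays 1 and 2, 0.05 in arrays 3 and 4 and -0.49 in arrays 5 and 6, and the F test between pairs did not pass (limma adjusted p = 0.420). Arrays of 1 pair differed by up to 0.33 in WT and 0.69 in flu, the latter between flu arrays 5 and 6. These gaps within pairs were close in size to the span of the pair means, 0.42 in WT and 0.76 in flu. In both genotypes arrays 1 and 2 had the highest pair mean, at intensities of 0.766 in WT and 0.761 in flu.

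**Figure D2:**
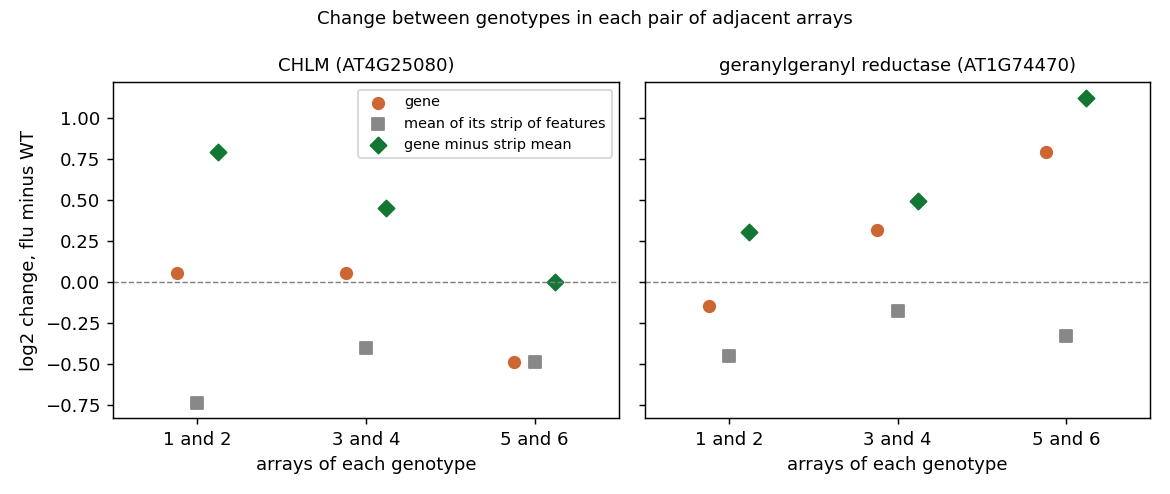
Log2 change, flu minus WT, in each pair of adjacent arrays for CHLM and GGR (circles), the mean change of the features in the same strip of feature numbers (squares) and the gene's change after that mean is subtracted (diamonds). GGR runs from -0.15 to 0.80 and CHLM from 0.06 to -0.49 between pairs, and the strip means are below 0 in each pair.

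Whether the members changed unequally was tested on the CHLM minus GGR log2 value within each array, from which the scale of the array cancels. This value was -0.99 ± 0.38 in WT and -1.44 ± 0.61 in flu (SD, n = 6), a difference of -0.45. The exact two-sided permutation test over 12 arrays gave p = 0.147, where the smallest p possible is 0.00216. Unequal change was therefore not shown. It was 0.20 in the first pair, -0.26 in the second and -1.28 in the third. Without flu array 2 the difference was -0.61 (exact permutation p = 0.0455), and without flu arrays 1 and 2 it was -0.80 (0.00952). Other choices brought it nearer to 0, to -0.20 without flu arrays 5 and 6 (exact p = 0.500), -0.28 without WT arrays 5 and 6 (0.433) and -0.23 with strips centred (0.463). With pairs averaged the exact p was 0.300, where 3 against 3 allows no p below 0.10. An exact sign-flip test of the same-numbered differences gave p = 0.250, and 0.500 with pairs averaged. With pairs averaged that test has only 3 differences to flip, so it could not have given a p below 0.05. The permutations over single arrays treat the arrays of a pair as independent, although they resembled each other. They also do not use the matching of array numbers between genotypes.

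Neighbouring feature numbers tended to differ alike between genotypes, and were grouped into 48 strips, each made of runs of 6 consecutive numbers that return at a fixed period. CHLM lies in strip 13, whose 70 features had a mean log2 change of -0.54, with 43 called lower and 5 higher. GGR lies in strip 10, whose 71 features had a mean of -0.32, with 25 called lower and 5 higher. Over all 3439 features 1005 were called lower and 791 higher, or 52.2% in either direction. Counted from the lowest of the 48 strip means, strip 13 ranked 8 and strip 10 ranked 18. Within their strips CHLM had the 19th and GGR the 11th highest change. The part of the strips in the members' changes was not tested.

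After the mean deviation of each strip was subtracted from each array, the values of both members lay above 0. The strip means taken off were negative, at -0.54 for CHLM and -0.32 for GGR, so both values rose by construction. GGR then changed by 0.64 (95% interval 0.19 to 1.09, limma adjusted p = 0.0207), so 1 of the 2 members was called, where 49.3% of all features were. CHLM stood at 0.42 (interval 0.03 to 0.80, adjusted p = 0.0665). With pairs averaged as well, the values stayed at 0.64 and 0.42, adjusted p was 0.143 for GGR and 0.206 for CHLM, and 0 of the 2 were called, against 27.8% of all features. The centred change of GGR was 0.31, 0.49 and 1.13 in the 3 pairs and still differed between them (limma F test, adjusted p = 0.0328). That of CHLM was 0.79, 0.45 and 0.00 (adjusted p = 0.254).

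**Figure D3:**
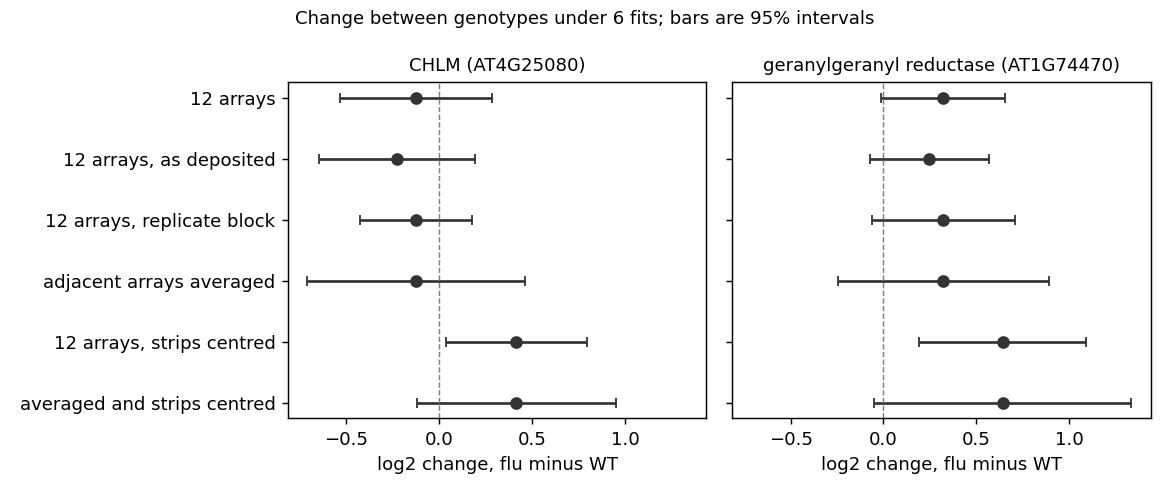
Log2 change, flu minus WT, of CHLM and GGR under 6 fits, with 95% intervals from limma. The CHLM value is -0.13 over 12 arrays and 0.42 with strips centred, while the GGR value lies above 0 in each of the 6 fits, from 0.25 to 0.64. The block and the averaging of pairs cannot move a value, only its interval. Of the GGR intervals, only that over 12 arrays with strips centred lies wholly above 0.

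Few other genes of the pathway had a feature of their own. Of 65 genes in 6 lists covering the common tetrapyrrole steps, the chlorophyll, haem and bilin, and sirohaem branches, regulators, and chlorophyll breakdown, 4 were measured, the members among them, and 0 passed over 12 arrays (limma; 0 at an unadjusted p below 0.05 too), where 52.2% of all features were called. In the chlorophyll branch 2 of 14 genes were measured, both members. In the common steps 1 of 16 was measured, HEMA3, and in the sirohaem branch 1 of 2, SIRB. The haem and bilin branch, the regulators and the breakdown list had none.

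HEMA3 (AT2G31250) is a gene of the glutamyl-tRNA reductase family, to which the enzyme bound by FLU belongs. It ranged from 0.563 to 0.899 in WT, with a median of 0.685, and from 0.623 to 0.746 in flu, with a median of 0.697. All 6 flu arrays lay inside the WT range. Its log2 change was 0.11 (95% interval -0.16 to 0.38, limma adjusted p = 0.490). With strips centred it was 0.32 (adjusted p = 0.0345, or 0.211 with pairs averaged as well).

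SIRB (AT1G50170) encodes the chelatase that inserts iron to form sirohaem, the cofactor of nitrite and sulfite reductase. It stood at 0.591, 0.473, 0.113, 0.0527, 0.437 and 0.420 on WT arrays 1 to 6. On flu arrays 1 to 6 it stood at 0.0580, 0.194, 0.111, 0.0492, 0.202 and 0.376. As deposited, 0 of the 6 flu arrays lay above the same-numbered WT array, but the genotypes overlapped because WT arrays 3 and 4 were low. After normalisation its log2 change was -0.48 (95% interval -2.15 to 1.198, limma adjusted p = 0.636), and it was 1.01 in the dim second pair, where deposited means were 0.0830 in WT and 0.0800 in flu. The value turned on the WT pairs left out, at -1.63 without arrays 3 and 4 (limma adjusted p = 0.0176), 0.16 without arrays 1 and 2 (0.905) and -0.02 without arrays 5 and 6. It was -1.01 without normalisation between arrays and -0.15 with strips centred (adjusted p = 0.247 and 0.870).

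Of 21 genes that supply isoprenoids or use the phytyl group 1 was measured and 0 passed. This was AT1G78620 (VTE6), a kinase of the route that returns phytol from chlorophyll breakdown to phytyl diphosphate for tocopherol. It ranged from 0.343 to 0.689 in WT and from 0.332 to 0.552 in flu, with a log2 change of 0.07 (95% interval -0.34 to 0.49, limma adjusted p = 0.790). Medians were 0.421 and 0.424, and 5 of the 6 flu arrays lay inside the WT range.

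**Figure D4:**
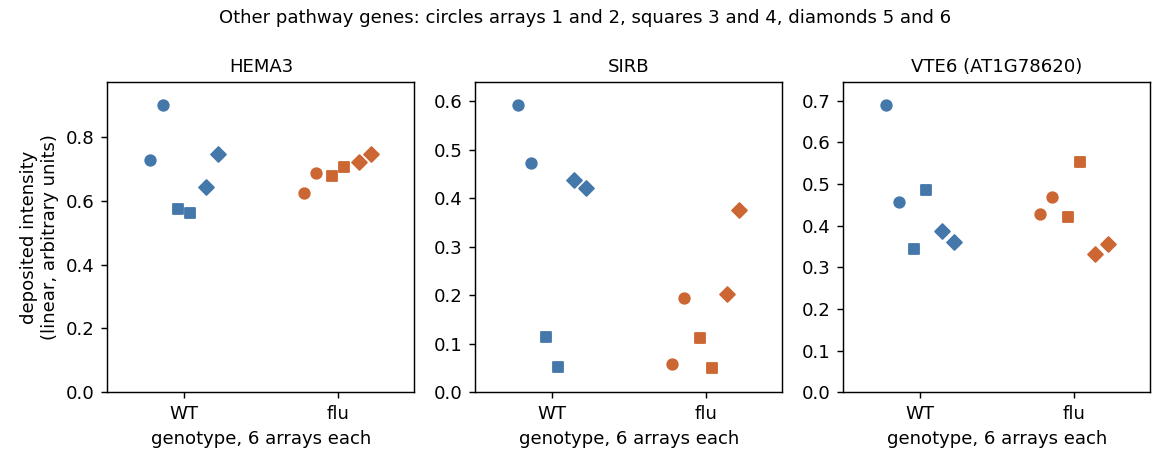
Deposited intensity (linear, arbitrary units, from 0) of HEMA3, SIRB and VTE6 on each of 12 arrays, WT in blue and flu in orange, with marker shapes for the pairs. The genotypes overlap for all 3 genes, and SIRB is low on WT arrays 3 and 4 (0.113 and 0.0527).

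Of 14 carotenoid genes 1 was measured, the carotene isomerase gene Z-ISO (AT1G10830), at a log2 change of -0.17 (limma adjusted p = 0.313), or 0.42 with strips centred (0.0126, and 0.143 with pairs averaged as well). It was -0.37 without WT arrays 3 and 4 (adjusted p = 0.00247) and -0.04 without WT arrays 1 and 2 (0.834). Its change also differed between pairs, at -0.50, 0.32 and -0.33 (F test, adjusted p = 0.0148), so such a difference was not particular to GGR. Of 18 antenna genes 1 was measured, LHB1B2 (AT2G34420), at mean intensities of 17.5 in WT and 18.4 in flu. Its direction depended on the scaling: the log2 value was -0.26 after normalisation (limma adjusted p = 0.0779), 0.08 before it (0.529) and 0.28 with strips centred (0.133). The normalised value had an adjusted p of 0.04996 with the replicate number as a block, but 0.177 with that block on averaged pairs, and it passed without WT arrays 1 and 2 (-0.34, 0.0355). The methyl donor list, of 10 genes, had none measured.

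The genes whose normalised log2 values followed each member most closely over the 12 arrays were sought among the other 627 features with exactly 1 gene and a value above 0 on every array. For CHLM these were PAC (AT2G48120), the PALE CRESS gene of plastid development, at r = 0.85, AT2G04790 at r = 0.77 and AT1G49870 at r = 0.74. With genotype means removed the correlations were 0.88, 0.79 and 0.73. These genes were picked as the highest of 627 correlations on the same arrays, so such values are no test of likeness. With strips centred the correlations were 0.73, 0.68 and 0.03. PAC, like CHLM, did not pass the test between genotypes, at 0.375 ± 0.102 in WT and 0.350 ± 0.128 in flu (SD, n = 6, limma adjusted p = 0.864).

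For GGR the most alike were AT1G22040 at r = 0.82, AT4G31930 at r = 0.80 and AT1G31220 at r = 0.79. With genotype means removed these were 0.74, 0.73 and 0.72, and with strips centred 0.72, 0.90 and 0.91. Of the 3, AT4G31930 passed the test, at 0.296 ± 0.234 in WT and 1.47 ± 0.179 in flu (SD, n = 6), a log2 change of 3.10 (limma adjusted p = 0.00158, or 0.0483 with pairs averaged), and leaving out a WT pair moved it to 4.01 (arrays 3 and 4) or 2.13 (arrays 5 and 6). The log2 values of AT1G22040 and AT1G31220 were 0.64 (adjusted p = 0.0958) and 0.24 (0.155). Both passed without WT arrays 3 and 4, at 1.05 (0.00434) and 0.40 (0.0210), and AT1G22040 also without WT array 3 (0.0326) or WT array 4 (0.0448) alone. Leaving out WT arrays 5 and 6 lowered them to 0.25 (0.417) and 0.095 (0.561). Arrays of a pair resemble each other, so these correlations rest on fewer than 12 independent values and are a description.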

How the data were processed

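The authors deposited 1 linear intensity per feature and array. How these were scanned, background-corrected and scaled is not given in the sources used here. Here, a floor was set at the 1st percentile of positive values (0.0236), lower values took the floor, and log2 values were quantile normalised between arrays. The change of every feature was fitted by lmFit and eBayes of limma 3.58.1 under R 4.3.3 (genotype as the one term, two-sided, Benjamini-Hochberg adjusted p below 0.05). Single values were tested by exact permutation over arrays. The number of arrays limits the precision.

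A platform annotation gave 692 features 1 gene, 870 several genes and 1877 none. Gene identifiers were matched to RefSeq genes of TAIR10.1 for 691 of the 692. No coordinates are given, because no source names the build behind the array. Named genes were the members, the measured genes of the pathway lists and, per member, the 3 features most alike by Pearson correlation. VTE6 is the name in those lists. Z-ISO, LHB1B2 and AT1G20130 were named after their values were seen. The members, lists, pairs and strips were chosen with earlier results of these data known.

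Replicate numbers pair the samples by the data: a WT array's deviations from its group mean correlated with those of the flu array of that number at r = 0.368 to 0.539, which for all 12 arrays was the highest of the 6 possible matches. The planned fit and the permutation tests did not use this matching. The block fit did, and 1966 features passed there, against 1796 in the planned fit. Alternatives were other scalings, floors and filters, array weights, the block, averaged pairs, centred strips, and arrays or pairs left out.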

Additional observations from a re-analysis of the deposited data

Results flagged for a closer look

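The flu minus WT change of GGR differed between the 3 pairs of adjacent arrays, with flu arrays 1 and 2 below and flu arrays 3 to 6 above their same-numbered WT arrays (limma F test, adjusted p = 0.0063). AT2G04790, one of the genes most alike to CHLM, had 1 flu array far from the others: array 5, at a normalised log2 value of -1.44, against -0.71 to -0.41 on the other 5. CHLM was also lowest on that array. AT2G04790 was picked by its correlation with CHLM on these same arrays, so a shared low array is no separate evidence. The flu group of AT2G04790 was the 1 flagged of 27 groups of 6 arrays tested, where chance gives about 1.35.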

How the results depend on the processing

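The change of GGR kept its direction under every alternative run, and passed with array weights (0.41), with strips centred (0.64), without flu array 2 (0.39, over a range of 0.25 to 0.39 with single arrays left out) and without flu arrays 1 and 2 (0.48). The block, the averaging of pairs and the filters of features could not move the members' values, only their errors. Those alternatives therefore do not bear on direction. The change of CHLM turned to 0.42 with strips centred, alone and with pairs averaged, to 0.018 without flu array 5 (from -0.22 to 0.018 with single arrays left out) and to 0.058 without flu arrays 5 and 6. It passed under none of these alternatives. The CHLM minus GGR difference ran from -0.61 to -0.29 with single arrays left out, passing without flu array 2 (-0.61), and was -0.80 without flu arrays 1 and 2. The count of 1796 features passing, of 3439, became 1193 with pairs averaged and 956 with strips centred too. Among only the features above the median intensity it was 1084, but fewer features were tested there, so that count does not compare with the others. The count of tetrapyrrole genes passing, 0, became 1 with array weights (GGR), 2 with strips centred (GGR and HEMA3), 0 to 1 with single arrays left out (GGR, without flu array 2), 1 without flu arrays 1 and 2 (GGR) and 1 without WT arrays 3 and 4 (SIRB). With the replicate number as a block, CHLM stood at -0.13 (adjusted p = 0.429) and GGR at 0.32 (0.130), and the block changed no other call named here than that of LHB1B2, which did not pass with the block on averaged pairs (0.177). The cause of these shifts was not tested, and no background readings were used.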
